A study of Mus musculus with 7 samples.

Results

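Protocadherins are adhesion proteins of the cadherin family that sit mainly on the surface of neurons. Among the 23413 gene symbols counted in mouse cortex, 71 name a protocadherin. They were taken by symbol: 15 symbols begin with Pcdha (alpha cluster), 22 with Pcdhb (beta cluster), 22 with Pcdhg (gamma cluster) and 12 with Pcdh followed by a number (non-clustered). RNA-seq libraries came from the cortex of 7 APP/PS1 mice, 1 library per mouse, 4 fed the control diet (CD, called SD in the labels) and 3 fed the ketogenic diet (KD). By energy, CD held 74% carbohydrate, 10% protein and 16% fat, and KD held less than 0.5% carbohydrate, 10% protein and 90% fat. Mice changed to their diet at 6 months of age, were housed singly, and were 13 months old after 7 months of feeding. The comparison asks which transcripts differ with the diet in this Alzheimer's disease model. All 7 mice carried the same APP/PS1 transgenes on a C57BL/6 background, and no wild-type library is among those analysed here. The transgenes of this line are driven by the mouse prion promoter, so they are on in many cells of the brain.

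The clustered protocadherins lie side by side on chromosome 18. Each alpha or gamma gene has a long first exon of its own, which codes for the extracellular cadherin repeats, the membrane span and the first part of the cytoplasmic tail, and that exon is spliced to constant exons that all genes of the cluster share. Beta genes are single exons with no constant part. A neuron switches on only some of these promoters, through CTCF, cohesin and DNA methylation, and the isoforms it shows bind the same isoform on another membrane, which lets a neurite recognise branches of its own cell. The C-type genes at the end of the alpha and gamma clusters are expressed more evenly among neurons. Non-clustered protocadherins are scattered over the genome, act in axon guidance, synapse formation and cell sorting, and differ in expression between cortical layers and brain regions.

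Libraries held from 22272883 to 36614954 counts, and protocadherins took from 0.211% to 0.233% of them. Levels are given as CPM, the counts of a gene scaled by the total of its library. In no group do the labels state the sex of the mice. Xist, the RNA of the inactive X chromosome, had 7247 to 12294 counts in 4 libraries and 7 to 101 counts in CD replicates 3 and 4 and KD replicate 3. CD replicate 4 and KD replicate 3 stood apart on the first principal component of all tested genes, at 39.5 and 46.7. The values without them are given beside some of the results they move, and for others in the closing section on processing. CD replicate 3 came next at 2.39, and the 4 libraries with many Xist counts lay from -25.2 to -18.7. In bulk tissue, fewer cells of a type cannot be told apart from less RNA per cell.

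Levels of different genes were compared per kilobase of exon that no other annotated gene shares. This length was chosen because a read on a constant exon belongs to every gene of its cluster: an alpha gene shares its constant exons with 13 other annotated genes and a gamma gene with 21. Pcdh9, which is known from cortical neurons and glia, had the highest level of all, 73.6 ± 17.3 (SD, n = 4) on CD and 61.9 ± 10.8 (SD, n = 3) on KD, in CPM per kilobase. Pcdh7 followed with 35.05 ± 6.08 (SD, n = 4) on CD and 37.2 ± 5.08 (SD, n = 3) on KD, and the 2 ranges did not touch within 1 SD. Next came the C-type gene Pcdhgc5 with 27.3 ± 6.41 (SD, n = 4) on CD and 31.8 ± 3.504 (SD, n = 3) on KD. Its SD overlapped that of Pcdh7 on both diets. Pcdh10, an adhesion protein of axons, reached 18.8 as the mean of the 7 libraries, and the C-type genes Pcdhac2 and Pcdhgc3 reached 14.9 and 11.1. Around the next level stood Pcdh17 (11.1), Pcdh20 (10.4), Pcdh1 (9.33) and Pcdh19 (8.45), which differed from each other by less than the spread of Pcdh17 between libraries. Divided by whole exon length, constant exons included, Pcdhgc5 had 16.1, below Pcdh10, Pcdhac2 had 7.64, below Pcdh19, and Pcdhgc3 had 6.10. The other 2 C-type genes were lower over unshared exon, Pcdhgc4 at 4.00 and Pcdhac1 at 2.31 CPM per kilobase.

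The genes without a C in their name (alternate genes) were each scarce. The median over 12 alpha alternate genes was 1.41 CPM per kilobase, with Pcdha12 the highest at 2.64. For the 22 beta genes the median was 2.59, from 0.193 for Pcdhb1 to 7.07 for Pcdhb9. Some beta exon lengths from GENCODE exceed the RefSeq span of the gene. For Pcdhb14 the length is 8695 bases, against a span from 37447657 to 37451094, and for Pcdhb19 7138 bases against 37496998 to 37501711. Beta levels per kilobase therefore depend on the annotation, and so does their rank beside the gamma genes. The 19 gamma alternate genes had a median of 3.84, up to 7.55 for Pcdhga11. Over whole exon length the medians were 0.656 for the alpha and 2.28 for the gamma alternate genes, and the gamma median then lay below that of the beta genes. Pcdh12, a protocadherin of blood vessel endothelium, was the lowest non-clustered gene at 0.0902. Pcdha4 had few counts, with 0, 0, 0 and 3 counts in the CD libraries and 1, 4 and 0 counts in the KD libraries. Its neighbours Pcdha3 and Pcdha5 had 64 to 131 and 92 to 189 counts. Pcdha4-g was listed at 0 in all 7 libraries, where a floor of 3 counts corresponds to 0.0819 to 0.135 CPM. How reads were divided between Pcdha4 and Pcdha4-g is not given in the sources used here, so these counts set no limit on the expression of either. The plot of levels per length shows, over unshared exon, the C-type genes above the alternate genes of their own clusters, except Pcdhac1 and Pcdhgc4.

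**Figure D1:**
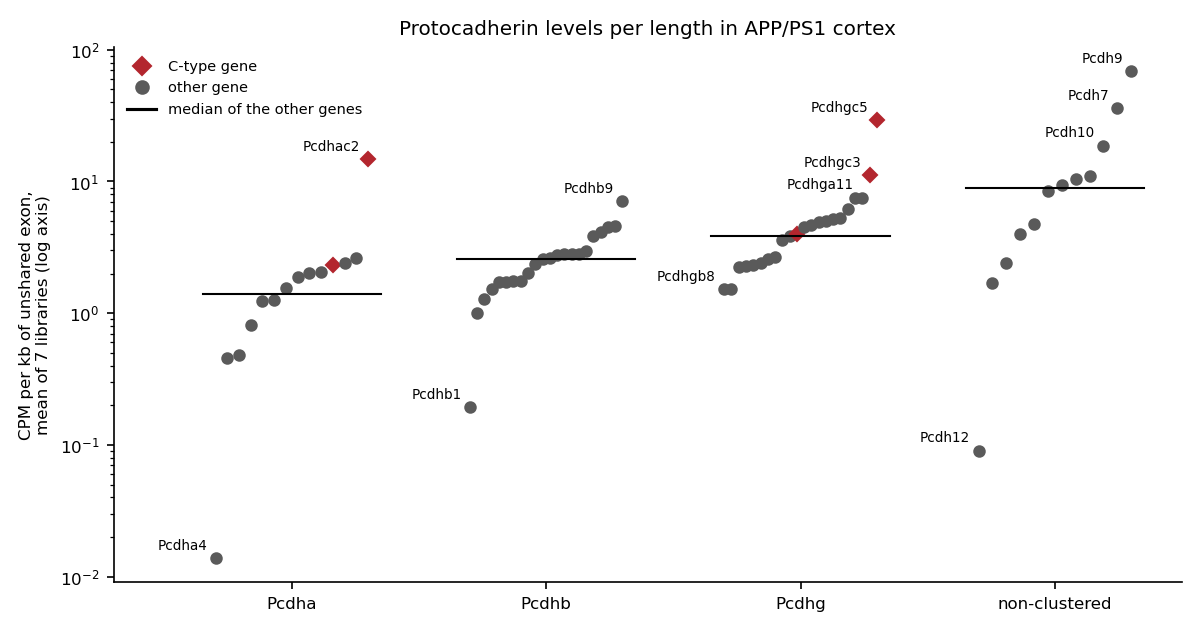
Mean level of each protocadherin over the 7 libraries (CPM per kilobase of exon not shared with another gene, log axis) for the alpha (Pcdha), beta (Pcdhb), gamma (Pcdhg) and non-clustered genes; Pcdha4-g, at 0, is not drawn. Red diamonds are the 5 C-type genes and black lines the median of the other genes of a class; Pcdh9 is highest at 68.6 and Pcdha4 lowest at 0.0138.

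Counts within a cluster were spread unevenly. Pcdhac2 alone held 48.7% of the alpha counts as the mean of 7 libraries, from 43.2% to 52.7%. The next alpha gene, Pcdha12, held 7.06% and Pcdha9 held 6.43%. In the gamma cluster Pcdhgc5 held 23.9% and Pcdhgc3 held 9.04%, with the alternate gene Pcdhga11 next at 6.30%. The beta cluster has no C-type gene and no gene held more than 9.80% (Pcdhb16), followed by Pcdhb9 with 9.07% and Pcdhb17 with 8.99%. Among the non-clustered genes, Pcdh9, Pcdh7 and Pcdh10 together made up most counts, with 28.5%, 23.4% and 19.0%.

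The summed level of each class differed little between the diets. Alpha genes summed to 91.5, 92.8, 96.9 and 80.0 CPM in CD replicates 1 to 4 and 94.6, 101 and 90.0 CPM in KD replicates 1 to 3, and the groups overlapped. Their means were 90.3 ± 7.25 CPM (SD, n = 4) on CD and 95.2 ± 5.57 CPM (SD, n = 3) on KD. Gamma genes summed to 305, 291, 337 and 297 CPM in CD replicates 1 to 4 and 318, 347 and 337 CPM in KD replicates 1 to 3. The means were 307 ± 20.5 CPM (SD, n = 4) on CD and 334 ± 15.03 CPM (SD, n = 3) on KD, and CD replicate 3 lay inside the KD range. Beta genes summed to 239, 240.3, 207 and 289.9 CPM in CD replicates 1 to 4 and 249.5, 249.7 and 212 CPM in KD replicates 1 to 3, with the highest value in CD replicate 4 and the lowest in CD replicate 3. Their means were 244 ± 34.4 CPM (SD, n = 4) on CD and 237 ± 21.6 CPM (SD, n = 3) on KD. The non-clustered genes summed to 1478, 1564, 1517 and 1600.4 CPM in CD replicates 1 to 4 and 1627, 1547 and 1695 CPM in KD replicates 1 to 3. Their means, 1539.7 ± 53.5 CPM (SD, n = 4) on CD and 1623 ± 74.3 CPM (SD, n = 3) on KD, again came from overlapping groups. C-type genes were as level: the 2 of the alpha cluster summed to 50.9 ± 4.94 CPM (SD, n = 4) on CD and 50.9 ± 3.62 CPM (SD, n = 3) on KD, and the 3 of the gamma cluster to 112 ± 11.6 CPM (SD, n = 4) on CD and 123 ± 8.41 CPM (SD, n = 3) on KD. These sums were compared by their ranges alone, without a test.

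**Figure D2:**
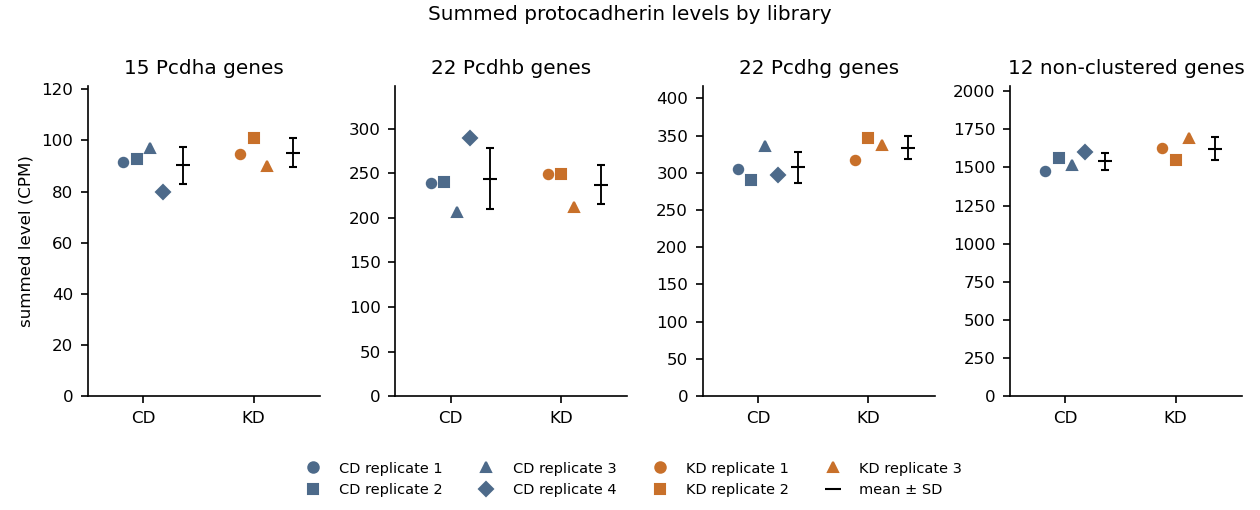
Summed level (CPM) of the alpha, beta, gamma and non-clustered protocadherins in each library, with the mean and SD of the 4 CD and the 3 KD libraries beside the points; each vertical axis starts at 0. The CD and KD ranges overlap in all 4 panels.

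Diet was tested gene by gene with edgeR's quasi-likelihood test over all 15881 genes that passed its filter on low counts, 69 of them protocadherins (Pcdha4 and Pcdha4-g did not pass). Fold changes are log2 of KD over CD. There were 8 members with a raw p under 0.05, or 11.6% of the 69, and all 8 were higher in KD. Over all tested genes 506 (3.19%) had a raw p under 0.05, with 1.66% higher and 1.52% lower in KD. At the raw threshold of 0.01 that the study used there was 1 member, Pcdhga5, where 0.321% of all genes were called (0.151% higher and 0.17% lower in KD). After Benjamini-Hochberg adjustment over all tested genes, edgeR gave no gene, member or not, an adjusted p under 0.05, and the smallest was 0.979, which is also the value of the 8 members. DESeq2 gave 9 members and limma-voom 7 members a raw p under 0.05, and neither gave a member an adjusted p under 0.05. An exact two-sided permutation test on log2 CPM gave p = 0.0571, the smallest that 4 against 3 libraries allow, for Pcdha7, Pcdha10 and Pcdhga5, and p from 0.114 to 0.229 for the other 5. So none of the raw calls below holds once the number of genes is taken into account. The count of 8 fell to 2 (2.90%) without CD replicate 1, to 2 (2.90%) without CD replicate 2 and to 4 (5.80%) without KD replicate 3. The share of all tested genes fell as well, to 1.63%, 2.13% and 2.22% in that order. Over the 7 fits that left out 1 library the count ranged from 2 to 9. It was 9 without CD replicate 3, where 7.38% of all tested genes were under 0.05.

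Of the 69 tested members 45 were higher in KD (65.2%), against 49.0% of all tested genes. That count was 37 without KD replicate 2 and 56 without both CD replicate 4 and KD replicate 3, the lowest and highest over the alternatives run. By class the share was 9 of 13 for alpha, 16 of 22 for gamma, 10 of 22 for beta and 10 of 12 for the non-clustered genes. Median fold changes were 0.10 for alpha, 0.064 for gamma, -0.023 for beta and 0.32 for the non-clustered members, beside -0.0033 over all tested genes. For the non-clustered genes the median was 0.11 without KD replicate 3. The CD and KD values did not overlap for 5 members, all higher in KD (Pcdha7, Pcdha10, Pcdhga5, Pcdhgb5 and Pcdhgb8), or 7.25% of the 69. In the background 4.2% of genes did not overlap, 1.64% with KD higher and 2.56% with KD lower. The members share libraries and, within a cluster, a chromosomal neighbourhood, so these counts are not independent.

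**Figure D3:**
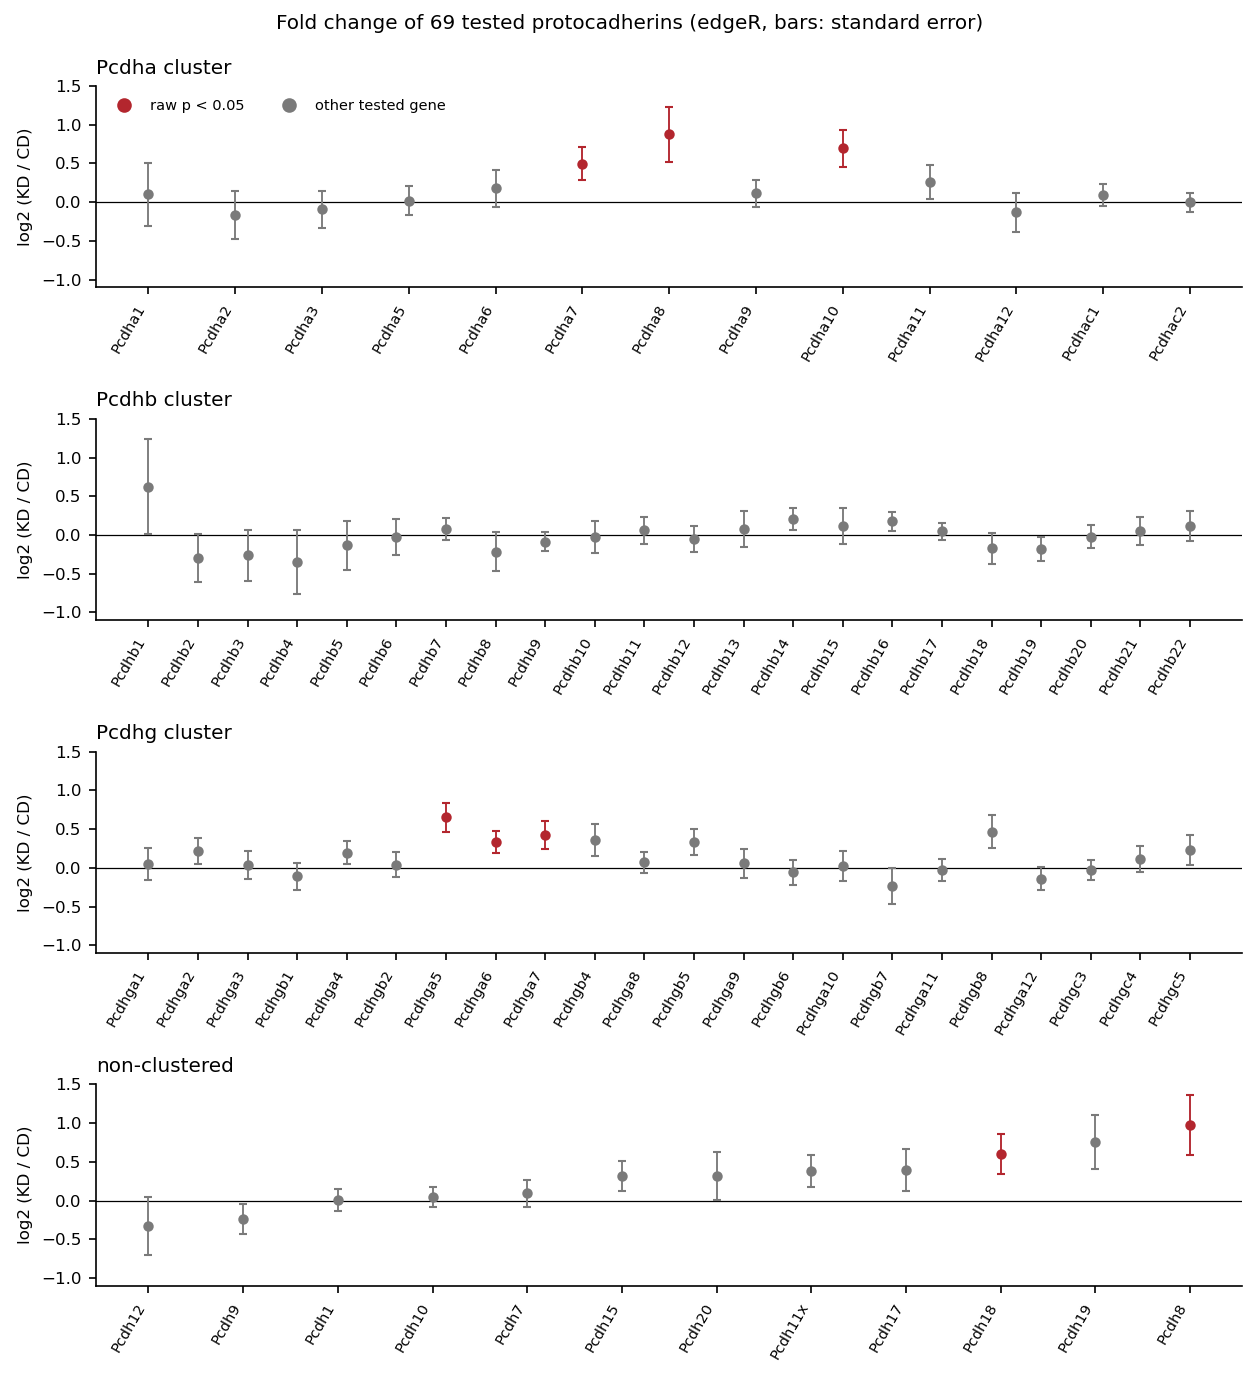
Log2 fold change of KD over CD for the 69 tested protocadherins (points, with bars for the standard error from edgeR), with clustered genes in chromosomal order and non-clustered genes in order of their fold change. Red points are the 8 members with a raw p under 0.05, which are 3 alpha, 3 gamma and 2 non-clustered genes, all above 0.

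The alpha cluster (mm10, chromosome 18, 36930285 to 37188897, plus strand) held 3 of the 8 members, Pcdha7, Pcdha8 and Pcdha10. Alpha isoforms are known for their part in serotonergic axon spread and in olfactory axon sorting. Pcdha10 had 3.96, 3.34, 4.24 and 3.36 CPM in CD replicates 1 to 4 and 5.94, 7.67 and 4.27 CPM in KD replicates 1 to 3. All KD values lay above the CD values, with KD replicate 3 just over the highest CD library. Its fold change was 0.69 (SE 0.23, raw p of 0.0173). Without KD replicate 2, its highest library, the value was 0.46 (raw p of 0.101), and without KD replicate 3 it was 0.89 (raw p of 0.00306). Pcdha7 had 3.11, 3.48, 3.87 and 2.68 CPM in CD replicates 1 to 4 and 4.45, 5.26 and 4.09 CPM in KD replicates 1 to 3. The groups did not overlap, and the fold change was 0.50 (SE 0.21, raw p of 0.0446). Pcdha8, the scarcest of the 3, had 0.712, 0.936, 1.16 and 0.710 CPM in CD replicates 1 to 4 and 2.18, 1.59 and 1.03 CPM in KD replicates 1 to 3. Here KD replicate 3 fell within the CD range, and the fold change was 0.88 (SE 0.36, raw p of 0.0381). Both genes missed a raw p of 0.05 in 5 of 7 fits that left out a library, namely without CD replicates 1, 2 or 4 or KD replicates 1 or 2, with raw p values up to 0.173 for Pcdha7 and 0.169 for Pcdha8.

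Pcdha9 lies between Pcdha8 and Pcdha10 and did not pass the test. It had 5.07, 5.89, 6.497 and 5.63 CPM in CD replicates 1 to 4 and 5.86, 7.1998 and 5.48 CPM in KD replicates 1 to 3, and its groups overlapped. Together the 4 neighbours Pcdha7 to Pcdha10, a run picked after their values were seen, summed to 12.9, 13.6, 15.8 and 12.4 CPM in CD replicates 1 to 4 and 18.4, 21.7 and 14.9 CPM in KD replicates 1 to 3. KD replicate 3 was again the lowest KD library, inside the CD range. Outside this run, Pcdha5 had 4.84 ± 0.477 CPM (SD, n = 4) on CD and 4.86 ± 0.808 CPM (SD, n = 3) on KD, and Pcdha12 had 6.80 ± 1.29 CPM (SD, n = 4) on CD and 6.15 ± 1.81 CPM (SD, n = 3) on KD. The C-type gene Pcdhac2 had 46.1, 48.9, 47.9 and 37.7 CPM in CD replicates 1 to 4 and 40.9, 47.3 and 46.2 CPM in KD replicates 1 to 3, and Pcdhac1 had 5.33, 5.85, 5.80 and 6.12 CPM in CD and 5.94, 6.49 and 5.84 CPM in KD. Neither passed the test, and Pcdhac1 was the steadiest member of the cluster, with a coefficient of variation of 5.96% over the 7 libraries.

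In the gamma cluster (mm10, chromosome 18, 37661775 to 37841873, plus strand) the members with a raw p under 0.05 were 3 neighbours, Pcdhga5, Pcdhga6 and Pcdhga7. Gamma isoforms are known for neuron survival, dendrite branching and self-avoidance. Pcdhga5 had 4.70, 3.91, 4.58 and 5.57 CPM in CD replicates 1 to 4 and 5.86, 7.35 and 8.76 CPM in KD replicates 1 to 3. Every KD library was above every CD library, with the highest value in KD replicate 3. Its fold change of 0.65 (SE 0.19, raw p of 0.00722) was the only one at the raw threshold of 0.01. Leaving out any library kept its raw p between 0.00381 and 0.0342, and it missed 0.01 without CD replicates 1, 2 or 3 or KD replicates 2 or 3. Pcdhga6 had 15.3, 14.9, 22.1 and 17.9 CPM in CD replicates 1 to 4 and 20.5, 22.2 and 23.1 CPM in KD replicates 1 to 3, and CD replicate 3 lay among the KD libraries. Its fold change was 0.33 (SE 0.15, raw p of 0.0498), and it kept a raw p under 0.05 in 1 of 7 such fits, the one without CD replicate 3. Pcdhga7 had 10.5, 7.93, 11.3 and 11.8 CPM in CD replicates 1 to 4 and 10.9, 14.2 and 16.7 CPM in KD replicates 1 to 3, with KD replicate 1 inside the CD range. Its fold change was 0.43 (SE 0.18, raw p of 0.0434), and it missed 0.05 without CD replicates 1 or 2 or KD replicates 2 or 3.

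Pcdhgb4, the next gene along, had 4.05, 4.25, 5.52 and 6.58 CPM in CD replicates 1 to 4 and 7.36, 6.38 and 5.75 CPM in KD replicates 1 to 3 and a fold change of 0.36 (SE 0.21, raw p of 0.113). The run Pcdhga5 to Pcdhgb4 was picked after its values were seen and summed to 34.6, 31.0, 43.6 and 41.9 CPM in CD replicates 1 to 4 and 44.6, 50.2 and 54.3 CPM in KD replicates 1 to 3. All 3 KD sums were above all 4 CD sums, at the closest 44.6 against 43.6 CPM. The other 15 gamma alternate genes summed to 158 ± 7.52 CPM (SD, n = 4) on CD and 161 ± 10.5 CPM (SD, n = 3) on KD, which overlapped. Both outcomes follow in part from how the run was picked. Further along the cluster, Pcdhgb5 and Pcdhgb8 had groups that did not overlap but missed the test. Pcdhgb5 had 3.45, 3.38, 3.69 and 3.63 CPM in CD replicates 1 to 4 and 3.98, 4.73 and 4.53 CPM in KD replicates 1 to 3 (fold change 0.33, raw p of 0.0808). Pcdhgb8 had 2.25, 3.58, 3.51 and 3.71 CPM in CD replicates 1 to 4 and 4.70, 4.47 and 4.27 CPM in KD replicates 1 to 3 (fold change 0.47, raw p of 0.0625).

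Of the 5 members lowest in raw p among those lower in KD, Pcdhgb7 and Pcdhga12 were gamma genes, and neither passed. Pcdhgb7 had 7.41 ± 1.65 CPM (SD, n = 4) on CD and 6.22 ± 1.67 CPM (SD, n = 3) on KD. Pcdhga12 had 14.4 ± 1.97 CPM (SD, n = 4) on CD and 12.996 ± 0.9949 CPM (SD, n = 3) on KD. Of the C-type genes, Pcdhgc5 had 75.7, 71.0, 89.9 and 49.4 CPM in CD replicates 1 to 4 and 72.7, 89.1 and 88.1 CPM in KD replicates 1 to 3. CD replicate 4 was the lowest, and the other 6 libraries lay within 71.0 to 89.9 CPM. Pcdhgc3, known from astrocytes as well as neurons, had 29.9, 26.8, 24.3 and 34.8 CPM in CD replicates 1 to 4 and 31.1, 25.7 and 27.4 CPM in KD replicates 1 to 3, with the highest value in the same CD replicate 4. Pcdhgc4, the isoform needed for neuron survival, had 10.3, 10.8, 10.7 and 13.2 CPM in CD replicates 1 to 4 and 10.6, 10.1 and 15.5 CPM in KD replicates 1 to 3, highest in KD replicate 3.

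The beta cluster (mm10, chromosome 18, 37264998 to 37521419, plus strand) had 0 of 22 members with a raw p under 0.05 in edgeR, DESeq2 or limma-voom. Without CD replicate 4 there was 1, Pcdhb14, with a fold change of 0.33 (raw p of 0.0217). Its variation followed single libraries. CD replicate 4 was the highest of the 7 libraries for 11 of 22 beta genes, and for 25.3% of all tested genes. Pcdhb2 to Pcdhb5, 4 neighbours noticed after their values were seen, varied together. Pcdhb4 had 10.9, 6.55, 6.497 and 19.0 CPM in CD replicates 1 to 4 and 9.15, 10.7 and 4.89 CPM in KD replicates 1 to 3. Its highest and lowest libraries, CD replicate 4 and KD replicate 3, differed by more than the group means, which were 10.8 and 8.25 CPM. Pcdhb3 had 11.1, 6.82, 6.47 and 14.1 CPM in CD replicates 1 to 4 and 8.85, 9.79 and 5.07 CPM in KD replicates 1 to 3. Pcdhb2, among the 5 members lower in KD by raw p, had 10.5, 8.03, 5.64 and 10.2 CPM in CD replicates 1 to 4 and 7.53, 9.14 and 4.00 CPM in KD replicates 1 to 3 (fold change -0.30, raw p of 0.373). Pcdhb5 completed the block with 10.8, 10.9, 6.74 and 13.1 CPM in CD replicates 1 to 4 and 10.2, 12.4 and 5.30 CPM in KD replicates 1 to 3.

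Summed, Pcdhb2 to Pcdhb5 gave 43.4, 32.3, 25.3 and 56.5 CPM in CD replicates 1 to 4 and 35.7, 42.0 and 19.3 CPM in KD replicates 1 to 3, and the other 18 beta genes gave 205 ± 22.1 CPM (SD, n = 4) on CD and 205 ± 10.7 CPM (SD, n = 3) on KD. KD replicate 3 and CD replicate 3 were lowest for the block and CD replicate 4 highest. These libraries also differed in cell markers. The mean log2 CPM of 9 mature oligodendrocyte genes was 7.80, 7.60, 5.83 and 7.70 in CD replicates 1 to 4 and 7.72, 6.81 and 5.81 in KD replicates 1 to 3, lowest in the same KD and CD replicates 3. The 5 olfactory bulb genes on the marker list summed to 5.70, 5.28, 9.40 and 66.4 CPM in CD replicates 1 to 4 and 4.45, 5.73 and 18.9 CPM in KD replicates 1 to 3, highest in CD replicate 4, with Eomes at 284 counts there against 0 to 30 elsewhere. Their part in the block was not tested. Pcdhb1, the first gene of the cluster, did not share the pattern, with 0.285, 0.435, 0.336 and 0.546 CPM in CD replicates 1 to 4 and 0.470, 0.176 and 1.26 CPM in KD replicates 1 to 3. Nor did Pcdhb6, with 3.79 ± 0.512 CPM (SD, n = 4) on CD and 3.68 ± 0.956 CPM (SD, n = 3) on KD. Among the most abundant beta genes Pcdhb16 had 22.4 ± 3.30 CPM (SD, n = 4) on CD and 25.1 ± 2.18 CPM (SD, n = 3) on KD, Pcdhb9 had 22.2 ± 2.44 CPM (SD, n = 4) on CD and 20.8 ± 0.430 CPM (SD, n = 3) on KD and Pcdhb17 had 21.4 ± 2.31 CPM (SD, n = 4) on CD and 21.8 ± 1.41 CPM (SD, n = 3) on KD. None of these differences had a raw p under 0.05 in edgeR. Pcdhb19 had 19.6, 20.03, 18.8 and 26.1 CPM in CD replicates 1 to 4 and 17.8, 21.9 and 15.5 CPM in KD replicates 1 to 3, and it was lower in KD without passing (fold change -0.18, raw p of 0.273).

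**Figure D4:**
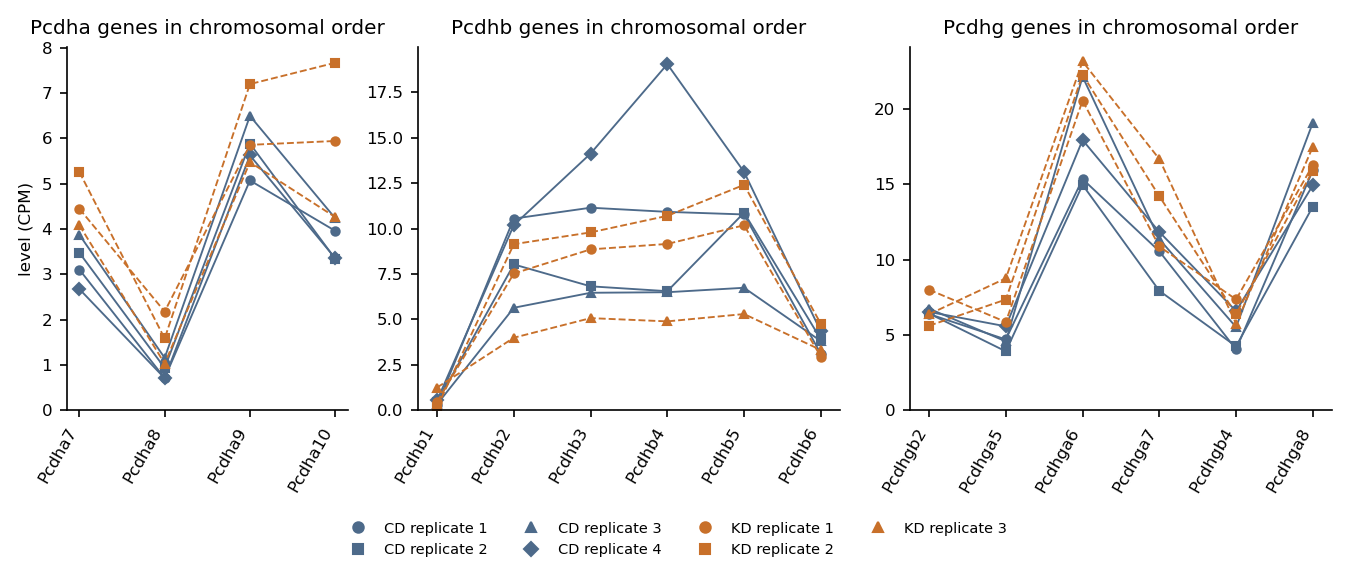
Level (CPM, linear axis from 0) of neighbouring clustered protocadherins in chromosomal order, 1 line per library, with CD solid and blue and KD dashed and orange. From Pcdhb2 to Pcdhb5 KD replicate 3 is the lowest line, CD replicate 4 is the highest from Pcdhb3 to Pcdhb5, and the KD lines lie above the CD lines at Pcdhga5.

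Among the non-clustered genes Pcdh9, Pcdh7, Pcdh10 and Pcdh1 were abundant and did not pass the test. Pcdh7, an adhesion protein that binds the phosphatase PP1 alpha, had 390.2, 412, 358 and 271 CPM in CD replicates 1 to 4 and 393, 424 and 323 CPM in KD replicates 1 to 3. Pcdh10, which takes part in activity-dependent synapse removal, had 280.2, 299.6, 344 and 255 CPM in CD replicates 1 to 4 and 345, 273 and 289 CPM in KD replicates 1 to 3. Their CD and KD ranges overlapped. Pcdh1 had 78.9 ± 13.9 CPM (SD, n = 4) on CD and 78.8 ± 10.7 CPM (SD, n = 3) on KD. Pcdh9 had 440.4, 501, 356 and 623 CPM in CD replicates 1 to 4 and 443, 446 and 323 CPM in KD replicates 1 to 3, lowest in KD replicate 3 and CD replicate 3 and highest in CD replicate 4. It had the smallest raw p of the members lower in KD, with a fold change of -0.23 (SE 0.19, raw p of 0.259), and without CD replicate 4 this was -0.10. Pcdh15, a protein of the hair cell tip link that precursors of oligodendrocytes also express, had 19.6, 20.7, 34.3 and 24.4 CPM in CD replicates 1 to 4 and 34.8, 29.8 and 27.1 CPM in KD replicates 1 to 3 (fold change 0.32, raw p of 0.145). Pcdh12 was scarce in every library, with 0.712, 0.602, 0.519 and 0.382 CPM in CD replicates 1 to 4 and 0.470, 0.441 and 0.404 CPM in KD replicates 1 to 3.

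KD replicate 3 was above every other library for 6 of the 12 non-clustered genes, against 22.9% of all tested genes. Pcdh8, a protocadherin induced by neuronal activity that draws cadherins from the synapse surface, had 10.2, 9.90, 13.6 and 11.1 CPM in CD replicates 1 to 4 and 13.2, 12.3 and 40.8 CPM in KD replicates 1 to 3. The other 2 KD libraries lay within the CD range. Its fold change was 0.98 (SE 0.39, raw p of 0.0348), and without KD replicate 3 it was 0.21 (raw p of 0.244). It also missed 0.05 without CD replicates 1, 2 or 4. Pcdh18, which binds the adaptor Dab1, had 8.66, 7.69, 12.7 and 12.1 CPM in CD replicates 1 to 4 and 11.7, 12.7 and 22.4 CPM in KD replicates 1 to 3. KD replicate 1 lay within the CD range and KD replicate 2 level with its top. The fold change of 0.61 (SE 0.26, raw p of 0.0444) became 0.27 (raw p of 0.244) without KD replicate 3, and it missed 0.05 without CD replicates 1 or 2 too.

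The remaining 4 genes of the 6 shared this library. Pcdh19, an X-linked gene whose loss causes a female-limited epilepsy in people, had 48.5, 54.4, 83.7 and 82.5 CPM in CD replicates 1 to 4 and 75.1, 71.4 and 193 CPM in KD replicates 1 to 3 (fold change 0.76, raw p of 0.0633). Without KD replicate 3 its fold change was 0.15 (raw p of 0.530). CD replicates 3 and 4, which with KD replicate 3 had hardly any Xist counts, were the highest 2 CD libraries for Pcdh19, and likewise for Pcdh8, Pcdh17 and Pcdh18, which are not X-linked. With Xist (log2 CPM) added to the fit, the fold change was 0.71 with a raw p of 6.79e-05, the smallest of the members in that fit, and an adjusted p of 0.312 in edgeR. Pcdh8, Pcdh18 and Pcdhga5 also had a raw p of at most 0.01 in that fit. It gave such a p to 1.31% of all tested genes, against 0.321% in the fit without Xist. Pcdh11x, the other X-linked member, had 50.5, 55.7, 39.4 and 54.8 CPM in CD replicates 1 to 4 and 59.4, 47.4 and 88.5 CPM in KD replicates 1 to 3. Its CD replicates 3 and 4 did not stand together, and the fold change was 0.38, or 0.11 without KD replicate 3. Pcdh17, which acts in presynaptic vesicle assembly in corticostriatal circuits, had 97.8, 78.7, 130.5 and 142 CPM in CD replicates 1 to 4 and 148, 87.6 and 204 CPM in KD replicates 1 to 3, and its fold change of 0.39 became 0.097. Pcdh20 had 49.2, 62.6, 49.8 and 45.1 CPM in CD replicates 1 to 4 and 31.7, 68.4 and 92.9 CPM in KD replicates 1 to 3, and its fold change of 0.32 turned to -0.025. With KD replicate 3 left out, no non-clustered gene had a raw p under 0.05. With CD replicates 3 and 4 left out as well, Pcdh15, Pcdh18 and Pcdh19 had a raw p of at most 0.01 in edgeR, as did 2.67% of all tested genes. Pcdh15 also had one without CD replicate 3 alone, where 1.34% of all tested genes did.

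KD replicate 3 also stood out in a list of ventral forebrain genes, some of which the other cortex libraries expressed too. The 8 genes of that list summed to 75.3, 91.9, 122 and 123 CPM in CD replicates 1 to 4 and 82.0, 85.5 and 738 CPM in KD replicates 1 to 3. Hap1 made up most of it, with 9219 counts in KD replicate 3 against 1049 to 2614 elsewhere, and Baiap3 had 1513 counts against 45 to 180. Zcchc12 had 5490 counts against 808 to 1663. The defining transcription factors were few there, with 7 counts for Lhx8 (0 to 2 in the other libraries), 27 for Isl1 (0 to 7) and 5 for Nkx2-1 (0 to 2). Gbx1 did not follow them, with 2 counts there and 1 to 4 elsewhere. None of the 8 genes was at 0 in every library. Their part in the non-clustered protocadherin values was not tested. Markers of the labelled tissue were present in all libraries, and 8 neuronal genes averaged 9.29, 9.27, 9.17 and 9.11 in CD replicates 1 to 4 and 9.17, 9.21 and 9.06 in KD replicates 1 to 3 in log2 CPM. The 8 genes of cortical excitatory neurons averaged 6.42, 6.33, 6.498 and 6.03 in CD replicates 1 to 4 and 6.28, 6.31 and 5.42 in KD replicates 1 to 3, lowest in KD replicate 3. Of these 8 genes 7 were lower in KD, with a median fold change of -0.28 and 0 at a raw p under 0.05, and 5 were lowest in KD replicate 3.

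**Figure D5:**
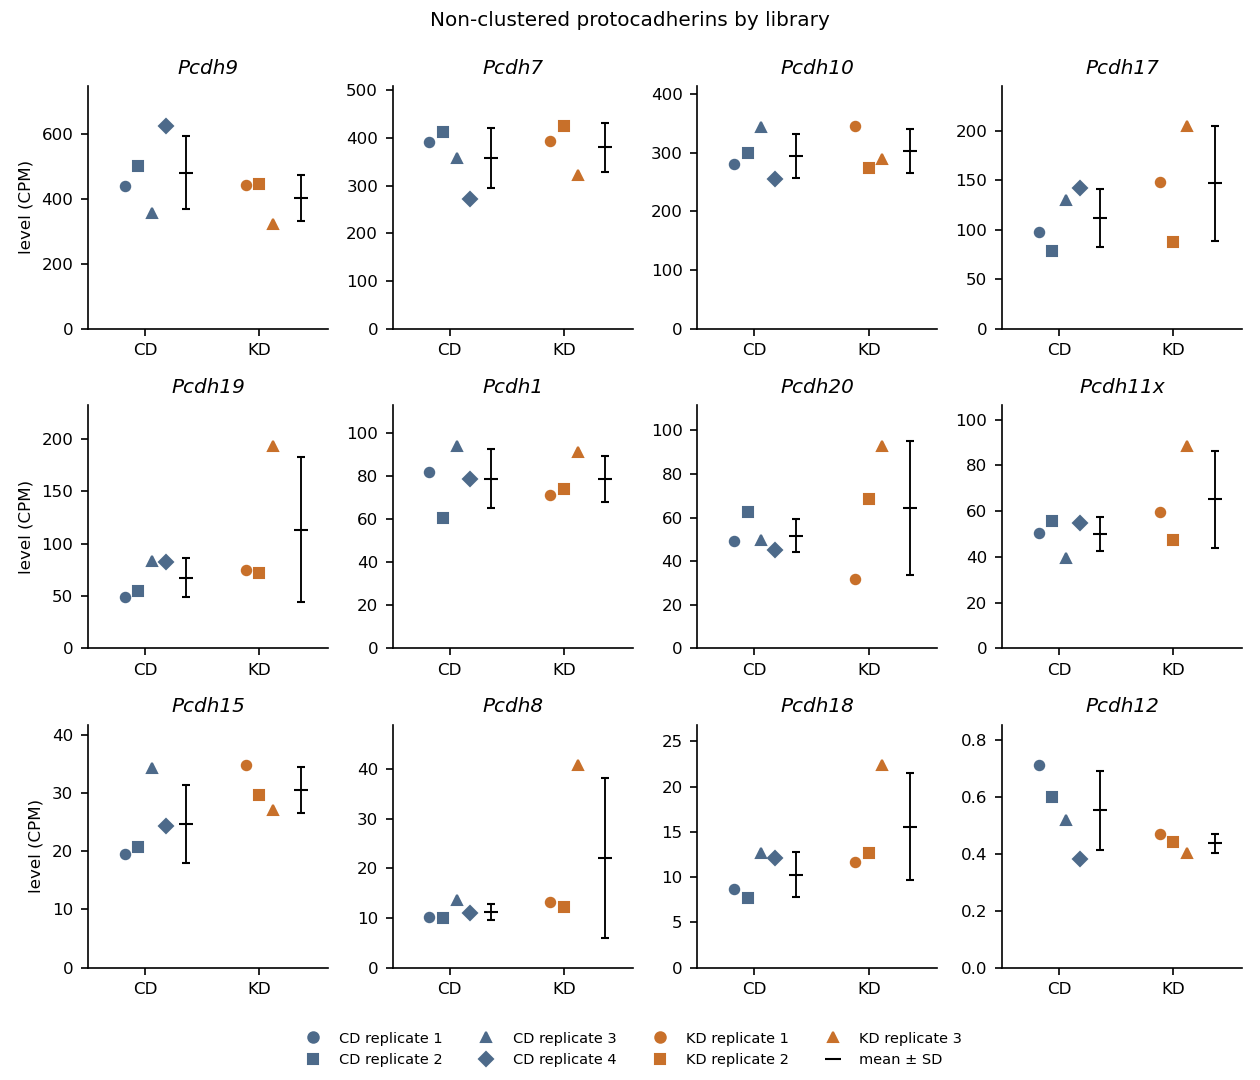
Level (CPM, linear axis from 0, scaled per gene) of the 12 non-clustered protocadherins in each library, with the mean and SD of the 4 CD and 3 KD libraries beside the points. KD replicate 3 (orange triangle) is the highest library for Pcdh8, Pcdh11x, Pcdh17, Pcdh18, Pcdh19 and Pcdh20.

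Of those 6 genes 5 have an entry in the RefSeq promoter table (GRCm38.p6, the same assembly as mm10), and their upstream sequences are printed to show which motifs they share. Each runs 5′ to 3′ on the gene's own strand towards the start given in that table, and the lines for Pcdh8, Pcdh18, Pcdh19 and Pcdh20 are from the minus strand and that for Pcdh17 from the plus strand. The lines for Pcdh18 and Pcdh19 are 67 and 51 bases shorter than the 250 bases of the others, because the longest annotated span of these genes begins that far upstream of the start in the table. Capitals mark the searched motifs on either strand: the CCAAT box (CCAAT or ATTGG, 7 letters AGCCAAT or ATTGGCT in its longer form), the GC box (GGGCGG or CCGCCC), the TATA box (TATAAA or TTTATA) and the short CRE motif (TGACG or CGTCA).
Pcdh8, chr14:79771313-79771562: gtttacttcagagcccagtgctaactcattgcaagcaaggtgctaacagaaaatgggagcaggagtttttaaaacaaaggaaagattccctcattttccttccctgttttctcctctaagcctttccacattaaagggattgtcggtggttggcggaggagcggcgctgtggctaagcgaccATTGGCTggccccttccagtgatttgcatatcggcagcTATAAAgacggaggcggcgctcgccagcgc
Pcdh17, chr14:84443313-84443562: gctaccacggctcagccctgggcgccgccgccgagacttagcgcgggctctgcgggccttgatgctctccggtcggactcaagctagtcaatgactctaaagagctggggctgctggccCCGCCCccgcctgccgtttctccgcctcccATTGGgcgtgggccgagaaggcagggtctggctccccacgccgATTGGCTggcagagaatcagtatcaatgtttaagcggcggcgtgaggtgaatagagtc
Pcdh18, chr3:49757384-49757566: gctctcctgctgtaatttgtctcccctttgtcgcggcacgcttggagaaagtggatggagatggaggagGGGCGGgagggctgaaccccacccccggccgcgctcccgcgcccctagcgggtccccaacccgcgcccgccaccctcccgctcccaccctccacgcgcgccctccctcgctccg
Pcdh19, chrX:133689045-133689243: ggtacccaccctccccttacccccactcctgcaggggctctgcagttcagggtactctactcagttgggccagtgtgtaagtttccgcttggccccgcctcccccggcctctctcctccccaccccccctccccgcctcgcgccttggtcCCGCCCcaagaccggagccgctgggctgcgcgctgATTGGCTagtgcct
Pcdh20, chr14:88471397-88471646: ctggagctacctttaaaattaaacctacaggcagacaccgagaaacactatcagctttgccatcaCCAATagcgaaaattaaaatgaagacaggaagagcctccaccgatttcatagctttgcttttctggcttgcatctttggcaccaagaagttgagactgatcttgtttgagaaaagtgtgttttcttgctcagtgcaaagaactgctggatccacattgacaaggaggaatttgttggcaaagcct

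In the 250 bases before the start in the table, the longer CCAAT form was found for Pcdh8, Pcdh17, Pcdh18 and Pcdh19, as ATTGGCT each time. Its first base lay 68, 58, 32 and 65 bases before that start. For Pcdh18 it lies inside the longest annotated span of the gene and is not printed, and for the other 3 it lies upstream of the span. It was found in 4 of the 9 member promoters in the table and in 7.61% of all 27025 promoters, and it was chosen after the sequences were seen. Pcdh20 had only the short form, which 8 of 9 members and 34.5% of all promoters hold. The longer form contains the short one. A GC box stood in Pcdh10, Pcdh17, Pcdh18 and Pcdh19 (32.9% of all promoters), and a TATA box in Pcdh8 and Pcdh15 (12.97%). The short CRE motif was in Pcdh9 and Pcdh10 (17.9%), and the full CRE, TGACGTCA, was in 0 of the 9 and in 1.62% of all. These matches describe letters and do not show that a factor binds there.

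Across the 7 libraries, 6 members known from particular cell types were set against markers of those cells, as 6 relations tested by exact two-sided permutation. Pcdhgc3 followed the mean log2 CPM of 9 astrocyte genes with a Pearson r of 0.890 (exact permutation p = 0.00813, 0.0488 after Benjamini-Hochberg adjustment over the 6). Spearman's rho was 0.714 (exact permutation p = 0.0881, adjusted 0.529). Without CD replicates 1 and 4, the 2 libraries farthest from the median of the astrocyte list, r was 0.710 (exact permutation p = 0.200). With so few libraries left, this p cannot decide whether the relation rests on those 2. Pcdh9 followed 9 oligodendrocyte genes with r of 0.813 (exact permutation p = 0.0294, adjusted 0.0881) and rho of 0.429 (exact permutation p = 0.354, adjusted 0.906). Without CD replicate 3 and KD replicate 3, r was 0.259. The other 4 had r between -0.266 and 0.383: Pcdh15 with oligodendrocyte precursor genes, Pcdh12 with endothelial genes, Pcdh18 with meningeal fibroblast genes and Pcdh8 with immediate early genes, with adjusted exact permutation p values from 0.733 to 0.926 for r and rho of -0.143 to 0.179 (adjusted 0.906). Neither diet group alone held enough libraries for such a relation. All 9 oligodendrocyte genes, all 8 meningeal genes and all 6 tested choroid plexus genes had a lower fitted level in KD, with median fold changes of -0.39, -0.77 and -1.24. The meningeal genes summed to 62.0, 69.2, 107 and 364 CPM in CD replicates 1 to 4 and 64.5, 52.7 and 165 CPM in KD replicates 1 to 3, and CD replicate 4 was the highest library for all 8. The choroid plexus genes summed to 456, 9.16, 31.8 and 69.2 CPM in CD replicates 1 to 4 and 23.5, 48.0 and 29.6 CPM in KD replicates 1 to 3, far highest in CD replicate 1. Only Aqp1 among the 3 lists, a water channel of choroid plexus, had a raw p under 0.05, with a fold change of -2.77. On the other lists Map2 (0.30), Csf1r (0.35) and Itgam (0.47) were higher in KD at a raw p under 0.05. Gad1 (-0.37) and Gjb6 (-0.43) were lower at that threshold, and Gabrq (2.51) and Baiap3 (2.94) of the ventral forebrain list higher. Of the 8 neuronal genes 6 were lower in KD (median -0.11), unlike Map2. Of the 9 astrocyte genes, Gjb6 among them, 5 were higher and 4 lower (median 0.0054). Of the 9 microglial genes, with Csf1r and Itgam, 7 were higher (median 0.22). Of the 7 interneuron genes, with Gad1, 5 were lower (median -0.068). The part of these cells in the protocadherin values was not tested.

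Genes that act on or beside protocadherins were taken from lists, and few had a raw p under 0.05. None of 18 tested genes for promoter choice (CTCF, cohesin and its loader, DNA and histone methylation) had a raw p under 0.05, with a median fold change of -0.016. The 18 genes of protocadherin signalling (focal adhesion kinases, the WAVE complex, Rac1, Rhoa, Prkca, neuroligins) had 0 as well, with a median of 0.019. Of 20 tested classical cadherins 1 had a raw p under 0.05, Cdh4 (R-cadherin), at 14.6 ± 2.41 CPM (SD, n = 4) on CD and 33.5 ± 30.1 CPM (SD, n = 3) on KD. Its KD values ran from 15.1 to 68.2 CPM. Of 11 other cadherin superfamily genes (Fat, Dachsous, Celsr, calsyntenin) and 22 other adhesion genes, 0 passed. Over all tested genes the share was 3.19%.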

How the data were processed

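Each library was made from 300 ng of RNA (10 mg of cortex) with a stranded total RNA kit and sequenced as 50-bp pairs. Alignment to mm10 was done by the authors in STAR, and they deposited raw counts per gene symbol, counted by the HTSeq method within STAR, without normalization or pooling. Tool versions, annotation, strand and overlap settings are not given in the sources used here. Under HTSeq-style counting, a read on an exon that several genes share is usually given to none, but whether that was so here is not known. Levels per length of alpha and gamma genes depend on it and were computed with and without the shared exons. Groups follow the labels. Labels do not say more of the animals, so p-values measure the spread between these 7 mice.

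The members, gene lists, and tests were chosen with earlier results of these data known. Members were matched by position to RefSeq and GENCODE M21 for coordinates and exon lengths (70 of 71). KD was compared with CD in edgeR 4.0.16 (R 4.3.3): filterByExpr, TMM scaling, glmQLFit with robust=TRUE and glmQLFTest, no covariate, Benjamini-Hochberg adjustment over 15881 genes holding 99.97% of counts. Correlations used log2 CPM with a prior count of 2 and exact permutation (scipy 1.17.1). With 35 splits of 4 against 3 libraries, the smallest two-sided exact p for a single gene is 0.0571, so no single gene can reach 0.05 in the exact test on log2 CPM. Named genes are all non-clustered members, the 5 C-type genes, the 3 most abundant of each cluster, the 5 smallest raw p in each direction, members at the floor, and list genes by raw p (0.01 or lower, or under 0.05 where a list had none). Others, such as Pcdha5, Pcdhb1, Pcdhb3 to Pcdhb6, Pcdhb14, Pcdhgb4, Pcdhgb5 and Pcdhgb8, were chosen after their values were seen. On simulated counts, a log2 change of 1 was called (adjusted p under 0.05) for 60.7% of 196 changed genes in a table of 15718. A change of 2 was called for 87.2% of 196 in a table of 15726. The raw threshold of 0.01 also called 146 and 145 unchanged genes in these simulated tables, against 51 of all 15881 genes in the real fit. The simulated counts thus behaved differently from the real ones, and these percentages do not give the power of the diet comparison. Alternatives were RLE or library-size scaling, other filters, the likelihood-ratio test, DESeq2 1.42.0, limma-voom (limma 3.58.1), a replicate block, Xist as a covariate, a GC and length correction, and leaving out libraries. A further gene list is not reported here.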

Additional observations from a re-analysis of the deposited data

Results flagged for a closer look

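Within the 4 CD libraries, 48 values (members and marker lists) were searched for 1 library lying well away from the rest, by the gap to the nearest library over the whole range. The gap passed Dixon's 95% critical value for 3 of them, where chance gives about 2.4, since about 1 in 20 groups passes it by chance. Pcdhb19 had a ratio of 0.835, from CD replicate 4 at 26.1 CPM against 18.8 to 20.03 CPM in the other 3. The oligodendrocyte list had a ratio of 0.897, from CD replicate 3 at a mean log2 CPM of 5.83 against 7.60 to 7.80. The ventral forebrain list had a ratio of 0.838, from CD replicate 1 at a mean log2 CPM of -0.47 against 0.062 to 0.16. Groups of 3, such as KD, were not examined, so KD replicate 3 was outside this search.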

How the results depend on the processing

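Counts of calls moved with the method and the scaling. The count of members with a raw p of at most 0.01, 1 in the reported fit, was 0 with library-size scaling, 2 with DESeq2, 4 with Xist as a covariate and 6 without CD replicates 3 and 4 and KD replicate 3. Members under 0.05, 8 in the reported fit, were 5 with library-size scaling and 5 without CD replicate 4 and KD replicate 3. The shares of all tested genes under 0.05 were 3.24% and 2.54% there. All tested genes at 0.01, 51 in the reported fit, were 103 with the likelihood-ratio test, 120 with DESeq2, 208 with Xist and 420 without the 3 libraries. Without those 3 libraries the median of the non-clustered members was 0.065. Leaving out 1 library gave 0 to 2 members and 19 to 211 genes at 0.01, 2 to 9 members under 0.05, and medians of 0.029 to 0.13 (alpha), -0.080 to 0.041 (beta), 0.055 to 0.17 (gamma) and 0.11 to 0.29 (non-clustered).

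Without CD replicate 4 and KD replicate 3 the direction turned for 23 of 69 members, all 4 of Pcdhb2 to Pcdhb5 among them. Examples are Pcdh9 (0.049), Pcdhb2 (0.058), Pcdhb4 (0.32), Pcdhb19 (0.038), Pcdhgb7 (0.035) and Pcdh20 (-0.090). Without all 3 libraries it turned for 17, among them Pcdhb4 (0.19), Pcdhb19 (0.010), Pcdhgb7 (0.054) and Pcdh20 (-0.15). The 8 members under 0.05 were higher in KD under every alternative run. They were picked by their raw p in these same libraries, so a kept direction was largely fixed beforehand and is no separate evidence. Leaving out CD replicate 4 turned 11 members and leaving out KD replicate 3 turned 12, with a range over single libraries of -0.60 to 0.049 for Pcdhb4 and -0.025 to 0.64 for Pcdh20. The cause was not tested.

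Of the correlations, leaving out the 2 libraries farthest from the list median gave 0.11 for Pcdh15, 0.30 for Pcdh8, 0.26 for Pcdh9 and 0.71 for Pcdhgc3. Leaving out 1 library gave -0.35 to 0.11 for Pcdh15, -0.32 to 0.042 for Pcdh8, -0.59 to 0.37 for Pcdh12, 0.29 to 0.74 for Pcdh18, 0.70 to 0.88 for Pcdh9 and 0.77 to 0.96 for Pcdhgc3. Over whole exons, Pcdhgc5 had 16.1 and Pcdhac2 7.64 CPM per kilobase.

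The labels number replicates in both diets, but deviations of same-numbered libraries correlated at 0.251, 0.195 and 0.0980, so the numbers were not taken as pairs. In a fit of libraries 1 to 3 with a replicate block, 4 members (Pcdh17, Pcdh18, Pcdh19 and Pcdhga5) and 182 genes were at 0.01, and 11 members turned, among them Pcdhb4 to 0.015. No member reached an adjusted p under 0.05 in any fit, the smallest being 0.223 in edgeR without the 3 libraries.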

Other observations

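Neighbouring clustered genes were compared in pairs, as Pearson's r of their log2 CPM over the 7 libraries. These values are a description, since all pairs share the same libraries and depth. In the beta cluster the median r was 0.478 over 21 adjacent pairs and 0.286 over the 210 other pairs. The 3 pairs of the run Pcdhb2 to Pcdhb5 had 0.901, 0.984 and 0.819, whereas Pcdhb1 with Pcdhb2 had -0.676. Another beta pair, Pcdhb15 with Pcdhb16, had 0.872. In the alpha cluster adjacent pairs had a median of 0.227 over 12 pairs and the 66 other pairs 0.057. There the highest value was Pcdha7 with Pcdha8, at 0.854, and the lowest Pcdha2 with Pcdha3, at -0.738. In the gamma cluster the medians were 0.254 over 21 adjacent pairs and 0.112 over 210 other pairs, but r was above 0.5 for 3 of 21 adjacent pairs (14.3%) and 38 of 210 others (18.1%). That share was 42.9% of adjacent and 34.3% of other pairs in the beta cluster, and 41.7% and 18.2% in the alpha cluster. Pcdhga6 with Pcdhga7 had 0.799, Pcdhga10 with Pcdhgb7 0.770 and Pcdhga5 with Pcdhga6 0.738.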
